A study of Mus musculus with 18 samples.

Results

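The subunits of the GABA-A receptor were examined in hypothalamic RNA of Schlager hypertensive BPH/2J mice and normotensive BPN/3J mice. The genes taken were *Gabra2*, *Gabra3*, *Gabra5*, *Gabrb1*, *Gabrb2*, *Gabrg1* and *Gabrd*, found as probesets (groups of array probes for 1 transcript) that the platform annotation assigns to 1 of these symbols alone. These 7 genes had 9 of the 34760 probesets on the array, or 7 of the 19937 genes with a probeset of their own. *Gabrb2* had 3 probesets and each other gene had 1. All 9 probesets lay above the 40th percentile of mean signal. The RNA of 18 male mice was hybridised singly, 1 array to each mouse, to the Mouse Gene 1.0 ST platform of Affymetrix. Both strains are inbred, and the labels name no transgene and no treatment. There were 6 mice of each strain in the active period at ‘peak’ blood pressure (BP), when the strains differ most in BP, and 3 of each strain in the inactive period at ‘trough’ BP. The ‘peak’ mice were 26 weeks old. For the ‘trough’ mice the sample labels give an age of 18 weeks and the series text gives 19, so time of day and age cannot be told apart. Nothing in the labels names a litter, batch or day for any mouse, and p-values measure the spread between these mice. The BPN/3J ‘trough’ mice are named so by their titles, while other label fields give their strain as BPH/2J.

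GABA-A receptors are chloride channels opened by GABA, the main inhibitory transmitter of the adult brain. A receptor is a ring of subunits, usually alpha and beta subunits with a gamma or a delta subunit. GABA binds between alpha and beta, and the benzodiazepine site lies between alpha and gamma. Receptors with delta, and many with alpha5, sit outside synapses and carry tonic inhibition. In the hypothalamus, GABA holds back neurons of the paraventricular nucleus that drive the sympathetic nerves.

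Of the 7 subunits, *Gabra3* and *Gabrg1* rose from ‘trough’ to ‘peak’ BP in both strains. *Gabra2* and *Gabrb1* were also called higher at ‘peak’ BP in the BPN/3J mice. None of the 7 was called lower at ‘peak’ BP in either strain, and no subunit differed between the strains at either time at an adjusted p under 0.05 in limma. Values are log2 signal as normalized by the authors, so that a difference of 1 is a doubling. Each comparison was made in 1 limma model of the 4 groups, and the p-values were adjusted over all probesets by the Benjamini-Hochberg method. A gene is called changed at an adjusted p under 0.05.

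The bases before the start of the 4 called genes are shown because these genes moved in the same direction. They come from RefSeq (mouse build GRCm38.p6), which gave 10 windows of 250 bases for 6 of the 7 genes. Capitals mark CG pairs, the sites at which promoter DNA can be methylated. The sequences run 5′ to 3′ towards the start of the gene, at chrX:72656920-72657169 on the minus strand for *Gabra3*, chr5:70842618-70842867 on the minus strand for *Gabrg1*, chr5:71095850-71096099 on the minus strand for *Gabra2* and chr5:71657671-71657920 on the plus strand for *Gabrb1*. *Gabra3* and *Gabrb1* each have another window that is not shown.
Gabra3: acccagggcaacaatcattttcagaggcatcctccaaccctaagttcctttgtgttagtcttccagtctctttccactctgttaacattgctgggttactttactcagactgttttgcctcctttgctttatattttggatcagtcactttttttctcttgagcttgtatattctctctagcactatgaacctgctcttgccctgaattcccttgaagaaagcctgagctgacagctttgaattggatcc
Gabrg1: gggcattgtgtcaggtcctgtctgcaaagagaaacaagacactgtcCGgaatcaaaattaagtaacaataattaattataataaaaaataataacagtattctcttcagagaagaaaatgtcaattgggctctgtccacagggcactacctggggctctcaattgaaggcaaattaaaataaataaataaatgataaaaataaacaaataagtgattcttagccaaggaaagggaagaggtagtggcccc
Gabra2: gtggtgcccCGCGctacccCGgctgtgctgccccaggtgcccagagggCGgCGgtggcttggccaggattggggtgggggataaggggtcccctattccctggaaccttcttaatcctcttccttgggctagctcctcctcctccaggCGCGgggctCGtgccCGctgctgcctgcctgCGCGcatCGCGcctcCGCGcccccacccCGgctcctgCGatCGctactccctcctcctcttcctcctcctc
Gabrb1: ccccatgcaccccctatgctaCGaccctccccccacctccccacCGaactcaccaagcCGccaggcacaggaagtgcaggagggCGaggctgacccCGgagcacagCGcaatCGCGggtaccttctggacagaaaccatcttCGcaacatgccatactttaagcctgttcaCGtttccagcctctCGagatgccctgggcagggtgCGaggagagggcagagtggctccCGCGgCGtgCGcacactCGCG

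These 4 windows differed in base content. That of *Gabra3* held 42.4% G and C with 0 CG pairs, and that of *Gabrg1* held 35.6% with 1 CG pair. In contrast, the shown windows of *Gabra2* and *Gabrb1* held 70% and 64.4%, each with 18 CG pairs. The window of *Gabrb1* that is not shown held 50.8% with 6 CG pairs, and that of *Gabra3* 39.2% with 0. The median over the 32851 windows of all genes was 52.4%, and 5.41% of them were lower than *Gabrg1* and 90.8% lower than *Gabra2*. Motifs of clock and activity-dependent factors were searched on both strands. The E-box CACGTG was in 6.02% of all windows, the ROR and REV-ERB element AGGTCA in 14%, the D-box TTANGTAA in 2.06%, the CRE TGACGTCA in 1.55% and its core TGACG, which overlaps the CRE, in 17.8%. Among the 10 windows of the subunits there was 1 match, a D-box in the window of *Gabrg1*. It is shown in capitals within the stretch at chr5:70842783-70842830 on the minus strand, and it ends 185 bases before the start.
Gabrg1 D-box: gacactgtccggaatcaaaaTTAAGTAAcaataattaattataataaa

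Among the alpha subunits, *Gabra3* (probeset 10604961) encodes alpha3, a subunit well known from monoamine neurons. In the BPH/2J ‘trough’ mice it gave 10.2, 10.2 and 10.24, and in the 6 BPH/2J ‘peak’ mice it ran from 10.62 over a median of 10.89 to 11.1. BPN/3J mice gave 10.07, 10.1 and 10.32 at ‘trough’ BP and from 10.4 over a median of 10.76 to 11.05 at ‘peak’ BP. Every ‘peak’ mouse was thus above every ‘trough’ mouse of its strain. The difference was 0.66 (SE 0.144), or 1.58-fold, in BPH/2J (adjusted p = 0.00876) and 0.57 (SE 0.144), or 1.48-fold, in BPN/3J (adjusted p = 0.0107). The call of *Gabra3* in BPN/3J was lost when ‘trough’ mouse 1 of that strain was left out (0.52, adjusted p = 0.0578), and likewise for mouse 3 (0.54, adjusted p = 0.0508).

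*Gabra2* (probeset 10530406) encodes alpha2, a subunit of synapses on the cell body and axon. In BPH/2J it gave 9.63, 9.67 and 9.73 at ‘trough’ BP and from 9.85 to 10.19 with a median of 10.07 at ‘peak’ BP. In BPN/3J it gave 9.18, 9.6 and 9.81 at ‘trough’ BP and from 9.68 to 10.18 with a median of 9.91 at ‘peak’ BP. The times did not overlap in BPH/2J and overlapped in BPN/3J, in which the 3 ‘trough’ mice spread over 0.626. The differences were close, 0.37 (SE 0.141) in BPH/2J with an adjusted p of 0.119 and 0.4 (SE 0.141) in BPN/3J with an adjusted p of 0.0491. The call in BPN/3J was lost when any of 13 of the 18 arrays was left out. It held without BPN/3J ‘trough’ mouse 4, BPN/3J ‘peak’ mouse 7, 10 or 11 or BPH/2J ‘peak’ mouse 9, and over all 18 the difference ran from 0.22 to 0.53.

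*Gabra5* (probeset 10563872) encodes alpha5, which is best known from the hippocampus. The BPH/2J ‘trough’ mice gave 9.12, 9.17 and 9.19, and the ‘peak’ mice ran from 9.09 over a median of 9.66 to 9.76. The BPN/3J ‘trough’ mice gave 8.79, 9.01 and 9.43, and the ‘peak’ mice ran from 9.08 over a median of 9.4 to 9.99. In BPH/2J, 5 of the 6 ‘peak’ mice were above all ‘trough’ mice and mouse 9 was below them, while in BPN/3J the times overlapped. The differences of 0.42 (95% interval 0.03 to 0.81, adjusted p = 0.179) and 0.38 (-0.0045 to 0.77, adjusted p = 0.129) were not called.

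Of the beta subunits, *Gabrb1* (probeset 10522324) encodes beta1, in most of the brain a less abundant subunit than beta2. It gave 9.77, 9.82 and 9.99 in the BPH/2J ‘trough’ mice and 9.3, 9.65 and 9.73 in the BPN/3J ‘trough’ mice. At ‘peak’ BP it ran from 10.04 over a median of 10.24 to 10.34 in BPH/2J, and from 9.74 over a median of 10.23 to 10.29 in BPN/3J. The times did not overlap in either strain, with the lowest BPN/3J ‘peak’ mouse just above the highest ‘trough’ mouse. The difference was 0.58 (SE 0.124), or 1.49-fold, in BPN/3J (adjusted p = 0.00443). In BPH/2J it was 0.35 (SE 0.124, adjusted p = 0.0912).

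*Gabrb2* encodes beta2, a subunit of the most common receptors of the brain. At its brightest probeset (10375245) the BPH/2J ‘trough’ mice gave 11.31, 11.42 and 11.52 and the BPN/3J ‘trough’ mice 11.16, 11.17 and 11.23. The ‘peak’ mice ran from 11.25 over 11.33 to 11.44 in BPH/2J and from 11.23 over 11.32 to 11.51 in BPN/3J. The strains were thus apart at ‘trough’ BP and overlapped at ‘peak’ BP. The time difference came to -0.076 (SE 0.076, adjusted p = 0.605) in BPH/2J and 0.16 (SE 0.076, adjusted p = 0.137) in BPN/3J. The other probesets gave -0.048 and 0.14 in BPH/2J and 0.16 and 0.31 in BPN/3J, and none was called. The 3 probesets thus differed in sign in BPH/2J and had the same sign in BPN/3J.

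*Gabrg1* (probeset 10530393) encodes gamma1, which is restricted to few regions and is also found in glia. The BPH/2J ‘trough’ mice gave 8.18, 8.35 and 8.45, and the ‘peak’ mice ran from 8.88 over a median of 9.06 to 9.32. The BPN/3J ‘trough’ mice gave 8.05, 8.12 and 8.32, and the ‘peak’ mice ran from 8.51 over a median of 8.86 to 9.3. As for *Gabra3*, every ‘peak’ mouse lay above every ‘trough’ mouse of its strain. The difference was the largest of the 7 subunits in both strains, 0.76 (SE 0.156), or 1.69-fold, in BPH/2J (adjusted p = 0.00675) and 0.72 (SE 0.156), or 1.65-fold, in BPN/3J (adjusted p = 0.00457). In BPH/2J it was not called without ‘trough’ mouse 1 (0.68, adjusted p = 0.0549).

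*Gabrd* (probeset 10519124) encodes delta, the subunit of tonic receptors that respond strongly to neurosteroids. In BPH/2J it gave 8.46, 8.64 and 8.91 at ‘trough’ BP, and from 8.47 over a median of 8.67 to 9.17 at ‘peak’ BP. In BPN/3J it gave 8.07, 8.41 and 8.64 at ‘trough’ BP, and from 8.17 over a median of 8.41 to 8.93 at ‘peak’ BP. The times overlapped in both strains, and the differences were 0.067 (95% interval -0.31 to 0.44) in BPH/2J and 0.071 (-0.3 to 0.45) in BPN/3J.

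**Figure D1:**
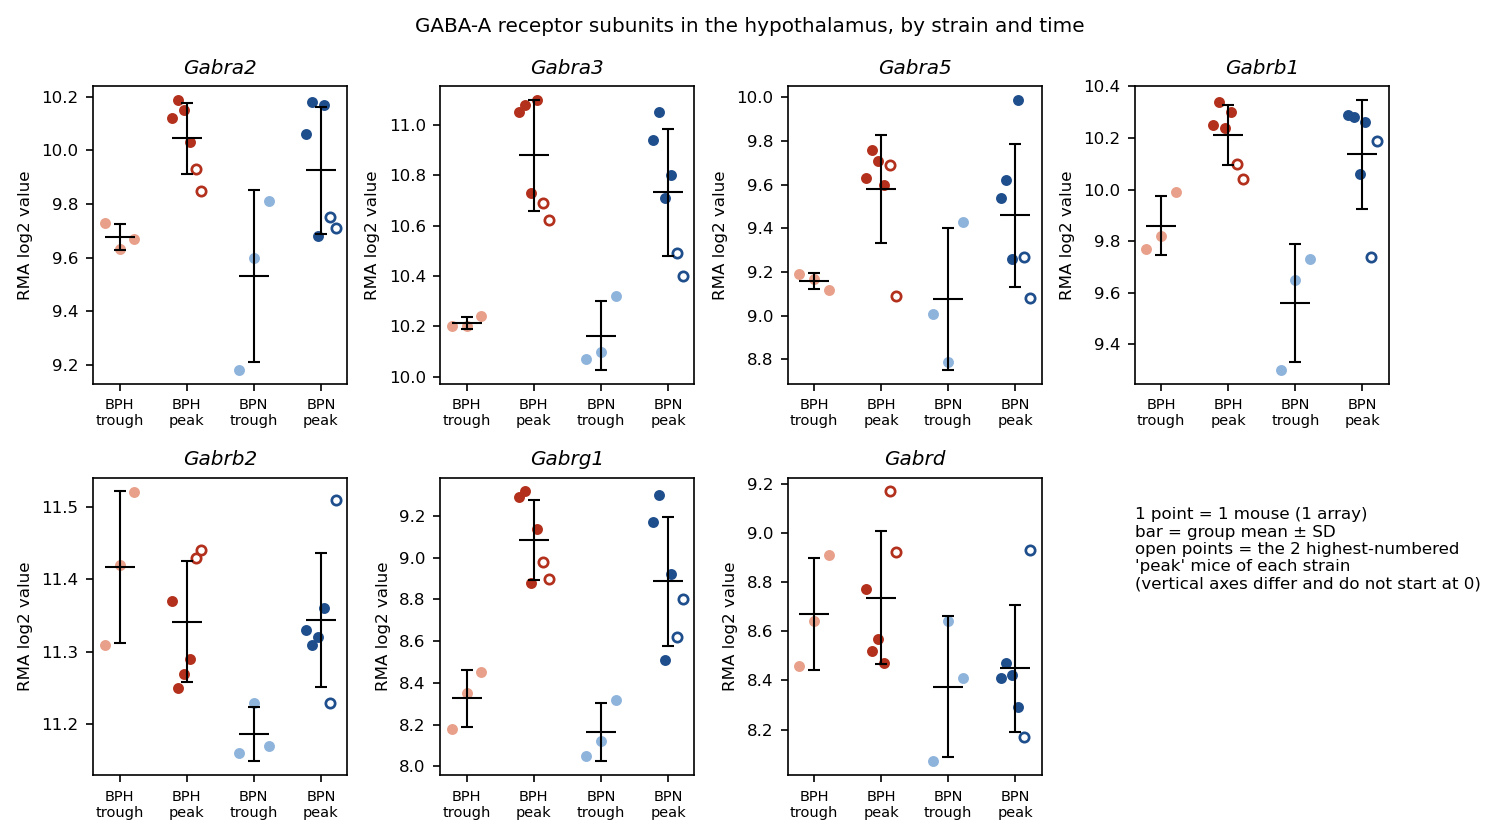
RMA log2 value (vertical axes, which differ and do not start at 0) of each subunit in each of the 18 mice, by strain and time, with the mean ± SD of each group. *Gabra3* and *Gabrg1* show no overlap between ‘trough’ and ‘peak’ mice in either strain, while *Gabrd* overlaps in both.

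In counts, 2 of the 7 subunits were called higher at ‘peak’ BP in BPH/2J, where 4.25% of all probesets were called higher and 4.39% lower (8.64% in either direction). In BPN/3J it was 4 of the 7, where 12.9% of all probesets were called higher and 12.4% lower (25.3% in either direction). Among probesets above the 40th percentile of signal, to which all the subunits belong, 6.41% were higher in BPH/2J and 18.2% in BPN/3J. The *Gabra3* and *Gabrg1* probesets were among the 1229 probesets, or 3.54%, called higher in both strains. ‘Peak’ and ‘trough’ mice did not overlap in 4 of the 7 subunits in BPH/2J, against 17.7% of all probesets, and in 3 of the 7 in BPN/3J, against 20.8%. Of the probesets called, 49.2% in BPH/2J and 51% in BPN/3J were higher at ‘peak’ BP, and 62.2% and 70% once each array was centred on its median. The 7 subunits had a median difference of 0.37 in BPH/2J and 0.4 in BPN/3J, beside -0.024 and -0.045 over all genes. In a bulk tissue, fewer cells of a type and less RNA per cell cannot be told apart.

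The strains were compared at each time. At ‘peak’ BP, 0 of the 7 subunits were called between BPH/2J and BPN/3J, where 1.33% of all probesets were, and 0 had an unadjusted p under 0.05. The largest difference was that of *Gabrd*, 0.29 higher in BPH/2J (95% interval -0.018 to 0.59, adjusted p = 0.545), with overlapping groups. That of *Gabrb2* was the smallest, with an interval from -0.13 to 0.13. At ‘trough’ BP, 0 of the 7 were called by limma, where 0.529% of all probesets were, and *Gabrb1* and *Gabrb2* had an unadjusted p under 0.05. *Gabrb1* was 0.3 higher in BPH/2J (adjusted p = 0.482) and *Gabrb2* 0.23 higher at its brightest probeset (95% interval 0.045 to 0.41, adjusted p = 0.388). The other probesets of *Gabrb2* gave 0.22 (-0.07 to 0.51) and 0.17 (-0.21 to 0.54). The strains did not overlap in these genes at ‘trough’ BP, which held for 19.9% of all probesets at that time, and overlapped in all 7 at ‘peak’ BP, where 1.57% of all probesets did not. The differences were positive for 6 of the 7 at ‘peak’ BP and for 7 of the 7 at ‘trough’ BP, with medians of 0.12 and 0.17 beside 0.0093 and 0.01 over all genes. Over all genes, 53.4% of the differences were positive at ‘peak’ BP and 52.2% at ‘trough’ BP. Both comparisons use the same arrays for all 7 genes, so the signs of the subunits are not independent of each other. Of 8 genes that make, pack and clear GABA, 7 were positive at each time (medians 0.12 and 0.038). Of 6 genes of the GABA-B list, 3 were positive at ‘peak’ BP and 4 at ‘trough’ BP.

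The question of the study was which genes differ between the strains at ‘peak’ BP beyond their difference at ‘trough’ BP. This quantity, *d*, is the log2 difference of BPH/2J over BPN/3J in ‘peak’ mice less that in ‘trough’ mice, and the adjusted fold difference (*aFD*) is taken here as the fold it stands for, with its sign. This is a definition made for these values, since the methods used here give no formula. The *aFD* was -1.17 for *Gabrb1* and for *Gabrb2*, 1.07 for *Gabra3*, 1.02 for *Gabra5* and *Gabrg1*, -1.02 for *Gabra2* and -1 for *Gabrd*. None of the 7 reached 1.5 in size, as 5.93% of all probesets did. In limma 0 of the 7 were called for *d*, and 0% of all probesets were, while 2890 had an unadjusted p under 0.05. Among them was the brightest probeset of *Gabrb2* (*d* of -0.23, 95% interval -0.46 to -0.0044, adjusted p = 0.596). Its other probesets gave a *d* of -0.21 (-0.56 to 0.15) and -0.17 (-0.62 to 0.29). The intervals of the other genes included 0 and were wide, from -0.6 to 0.14 for *Gabrb1* and from -0.43 to 0.5 for *Gabrg1*.

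**Figure D2:**
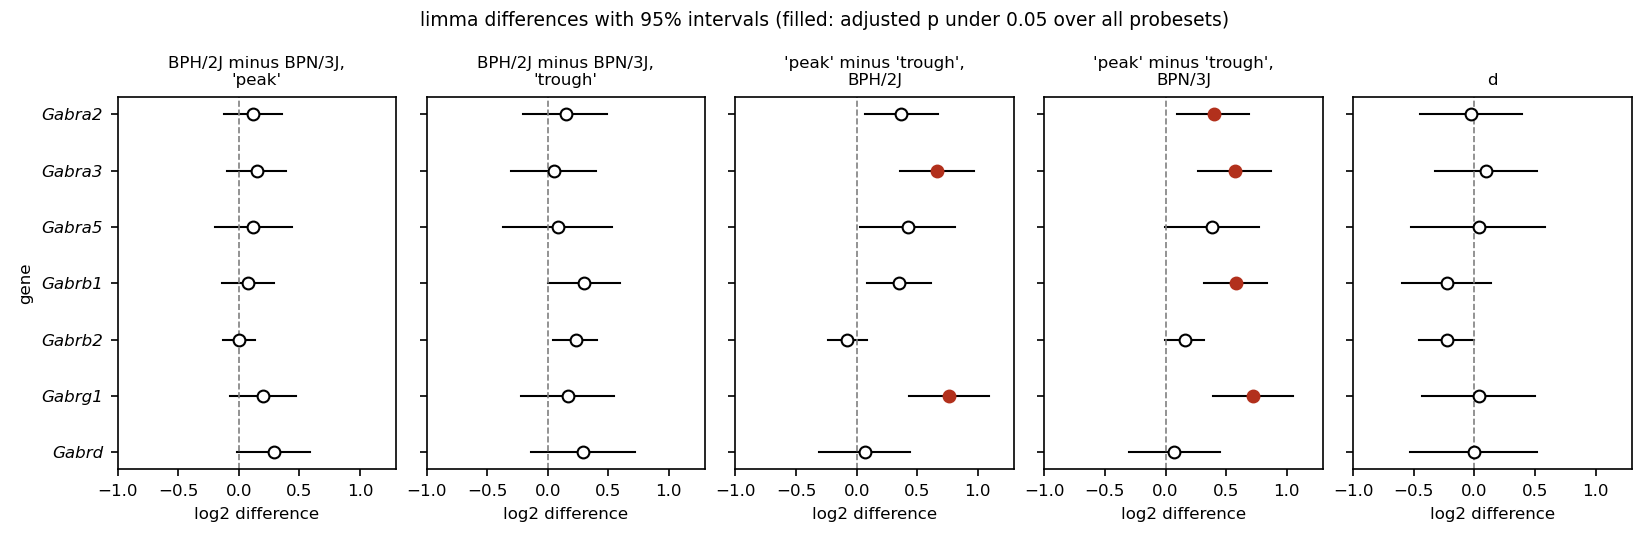
Log2 difference with its 95% interval (horizontal axes) for each subunit in the 5 comparisons made. Filled points mark an adjusted p under 0.05, which occurs for 2 subunits in BPH/2J and 4 in BPN/3J when ‘peak’ is compared with ‘trough’, and for 0 in the comparisons of the strains and in *d*.

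The subunits also varied together from mouse to mouse. Over the 18 arrays *Gabra3* and *Gabrg1* had a Pearson r of 0.95, *Gabrb1* and *Gabrg1* 0.9, and *Gabra2* and *Gabrb1* 0.88. With the group means removed, r was still 0.8 for *Gabra3* and *Gabrg1*, and it ran from 0.48 to 0.8 among *Gabra2*, *Gabra3*, *Gabra5*, *Gabrb1* and *Gabrg1*. *Gabrd* and the brightest probeset of *Gabrb2* had an r of 0.88 with each other after the group means were removed, and from -0.38 to 0.21 with the other 5. For *Gabrb2* this depended on the probeset, since the other probesets (10375259 and 10375261) had an r of 0.04 and -0.21 with *Gabrd* and of 0.63 and 0.73 with *Gabra3*. These values describe the arrays, whose RNA and dissection all genes of a mouse share, and they carry no test. The ‘peak’ mice with the highest numbers in their titles (8 and 9 in BPH/2J, 10 and 11 in BPN/3J) differed from the other ‘peak’ mice in most of these genes. *Gabra3* had a mean of 10.66 in them and 10.99 in the others in BPH/2J, and 10.44 and 10.87 in BPN/3J. *Gabra2*, *Gabra5*, *Gabrb1* and *Gabrg1* were also lower in them in both strains, by differences from -0.21 to -0.43. In contrast, *Gabrd* was 0.46 higher in them in BPH/2J (9.04 and 8.58) and 0.16 higher in BPN/3J (8.55 and 8.4). *Gabrb2* gave differences of 0.14 and 0.039 at its brightest probeset, of -0.18 and -0.33 at 10375259 and of -0.3 and -0.54 at 10375261. The same mice stood apart in other measures. They had the lowest array weights of the ‘peak’ mice (0.472 and 0.401 in BPH/2J, 0.417 and 0.299 in BPN/3J). Markers of ependyma and tanycytes averaged 6.72 and 6.58 in BPH/2J mice 8 and 9 against 6.88 to 7.21 in the others, and 6.32 and 6.37 in BPN/3J mice 10 and 11 against 6.81 to 7.06. Markers of cortex and hippocampus averaged 7.43 and 7.45 against 7.55 to 8.03 in BPH/2J, and 7.49 and 7.4 against 7.58 to 8.55 in BPN/3J. Hypothalamic markers averaged 7.26 and 7.29 in BPN/3J mice 10 and 11 against 7.63 to 8.24 in the others, and did not separate the BPH/2J mice. Choroid plexus markers were likewise lower only in the BPN/3J mice. Markers of endothelium, microglia and oligodendrocytes were lower in them only in BPH/2J. The part of these measures in the differences was not tested. The mice were split in this way after their lower values were known, so leaving them out raises these differences by construction. With the lower-numbered ‘peak’ mice alone, 5 subunits were called in BPH/2J and 5 in BPN/3J, *Gabra5* among them (0.51 and 0.53, adjusted p = 0.0396 and 0.0217). With the higher-numbered alone, 1 was called in each, *Gabrg1*.

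By a fixed rule, the genes most like each subunit over the 18 arrays were sought by Pearson r, which is given without a test. For *Gabra3* they were *Srp72*, a part of the signal recognition particle (r = 0.969, Spearman's rho = 0.979), and *1110051M20Rik* (0.968, 0.95). For *Gabrg1* they were *Zcchc12* (0.968, 0.961) and *Snx10*, a sorting nexin (0.965, 0.938). For *Gabrb1* they were *Rab30*, a small GTPase of the Golgi (0.977, 0.967), and *2210408I21Rik* (0.964, 0.938). For *Gabra2* they were *Phf6* (0.94, 0.909) and *Zfp87* (0.937, 0.895), and for *Gabra5* *Mphosph10* (0.901, 0.901) and *Slc37a3* (0.9, 0.938). For *Gabrb2* they were *Samd5* (0.895, 0.944) and *Plcb4*, a phospholipase C (0.833, 0.843). For *Gabrd* they were *Grid2ip* (0.891, 0.899) and *Wnt3*, a secreted ligand (0.89, 0.748). The r for *Gabrb2* and *Gabrd* are the lowest of these, together with those for *Gabra5*.

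Of the 12 other subunits of GABA-A and GABA-rho receptors listed, 9 had a probeset of their own, and 0 of them were called in any of the 5 comparisons by limma. Their median time difference came to 0.013 for BPH/2J and 0.018 for BPN/3J. The smallest unadjusted p-values were those of *Gabrr3*, a rho subunit best known from the retina (-0.46 in BPN/3J, adjusted p = 0.0562), and of *Gabrq*, which encodes theta (0.4 in BPH/2J, adjusted p = 0.146). Many GABA-A genes lie side by side in clusters. On chromosome 5 the order is *Gabrg1*, *Gabra2*, *Gabra4* and *Gabrb1*. Of these, *Gabra4* gave 0.12 in BPH/2J and 0.25 in BPN/3J (adjusted p = 0.754 and 0.296), while its neighbours *Gabra2* and *Gabrb1* were called in BPN/3J and *Gabrg1* in both strains. On the X chromosome *Gabra3* lies between *Gabre*, which gave 0.15 and 0.018, and *Gabrq*, which gave 0.4 and 0.29. On chromosome 7 *Gabra5* lies beside *Gabrg3*, which gave 0.013 and 0.057.

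The genes that make, pack and clear GABA had differences of the opposite sign to those of the called subunits. All 8 measured of the 9 listed had negative differences in both strains. Over all genes, 45.5% of the differences were positive in BPH/2J and 44.6% in BPN/3J. All genes share the same arrays, so signs within this list and the lists below are not independent of each other. Of the 8 genes, 2 fell at ‘peak’ BP in BPN/3J, where 12.4% of all probesets were called lower. These were *Slc32a1*, the vesicular GABA transporter (-0.46, SE 0.152, adjusted p = 0.0365), and *Slc6a12*, a plasma membrane transporter of betaine and GABA (-0.67, SE 0.208, adjusted p = 0.0278). *Gad1* and *Gad2*, which encode the enzymes that make GABA, gave -0.12 and -0.053 in BPH/2J and -0.24 and -0.22 in BPN/3J and were not called. In the list of genes for anchoring and transport of the receptor, 14 of 15 were measured. *Nlgn2*, the adhesion protein of inhibitory synapses, fell by 0.47 in BPH/2J (adjusted p = 0.00627) and by 0.33 in BPN/3J (adjusted p = 0.0199). *Kif5a*, a kinesin that carries receptors to the surface, fell by 0.5 (adjusted p = 0.00119) and by 0.48 (adjusted p = 0.000793). *Zdhhc3*, an enzyme that palmitoylates receptor subunits, fell by 0.34 in BPH/2J (adjusted p = 0.0161), and *Lhfpl4*, a partner of the receptor at inhibitory synapses, fell by 0.41 in BPN/3J (adjusted p = 0.045). The 1 gene of this list that rose was *Gabarapl1*, by 0.32 in BPH/2J (adjusted p = 0.0333). Thus 1 rose and 3 fell in BPH/2J, and 0 rose and 3 fell in BPN/3J. Of all probesets, 4.25% were called higher and 4.39% lower in BPH/2J, and 12.9% and 12.4% in BPN/3J.

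Chloride transporters set the direction in which the receptor's current flows, and all 4 measured had negative differences in both strains. *Slc12a7* (KCC4), which exports chloride, fell by 0.49 in BPH/2J (adjusted p = 0.00365) and by 0.55 in BPN/3J (adjusted p = 0.00105). *Slc12a2* (NKCC1), which imports chloride, fell by 0.42 in BPH/2J (adjusted p = 0.0344) and gave -0.036 in BPN/3J. *Slc12a5* (KCC2), the exporter of neurons, gave -0.38 and -0.35 and was not called (adjusted p = 0.0857 and 0.0582). In the metabotropic GABA-B list, *Gabbr2* fell by 0.66 (adjusted p = 0.00207) and by 0.43 (adjusted p = 0.0129), and it was the only 1 called of 6. Its partner *Gabbr1* gave -0.15 and -0.18 (adjusted p = 0.177 and 0.057). Beside the calls in these lists, 4.39% of all probesets were called lower in BPH/2J and 12.4% in BPN/3J.

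The glycine receptor, the other chloride channel of inhibitory synapses, was positive in all 5 measured subunits in both strains. *Glra2* rose by 0.73 (SE 0.225, adjusted p = 0.0265) and *Glra3* by 0.85 (SE 0.252, adjusted p = 0.0232) in BPN/3J. In BPH/2J they gave 0.72 (adjusted p = 0.0561) and 0.5 (adjusted p = 0.25). Of 6 measured genes for the synthesis of neurosteroids, which act on delta receptors, *Cyp11a1*, the enzyme that cleaves the cholesterol side chain, fell by 0.65 in BPH/2J (adjusted p = 0.0111) and by 0.54 in BPN/3J (adjusted p = 0.0152). *Akr1c14*, which makes allopregnanolone, rose by 0.81 (adjusted p = 0.0103; strain difference at ‘peak’ BP -0.61, adjusted p = 0.0948) and *Star*, which brings cholesterol into mitochondria, fell by 0.27 (adjusted p = 0.049) in BPN/3J. Beside these calls, 4.25% of all probesets were called higher and 4.39% lower at ‘peak’ BP in BPH/2J, and 12.9% and 12.4% in BPN/3J. No gene of these 7 lists was called between the strains at its brightest probeset. Between the strains, 1.33% of all probesets were called at ‘peak’ BP and 0.529% at ‘trough’ BP. A dimmer probeset (10575616) of *Gabarapl2*, a gene of these lists, was called lower in BPH/2J at both times. It gave -1.08 at ‘peak’ BP (adjusted p = 5.78e-05 in limma) and -1.01 at ‘trough’ BP (adjusted p = 0.0103). The brightest probeset of *Gabarapl2* gave 0.079 and 0.015.

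**Figure D3:**
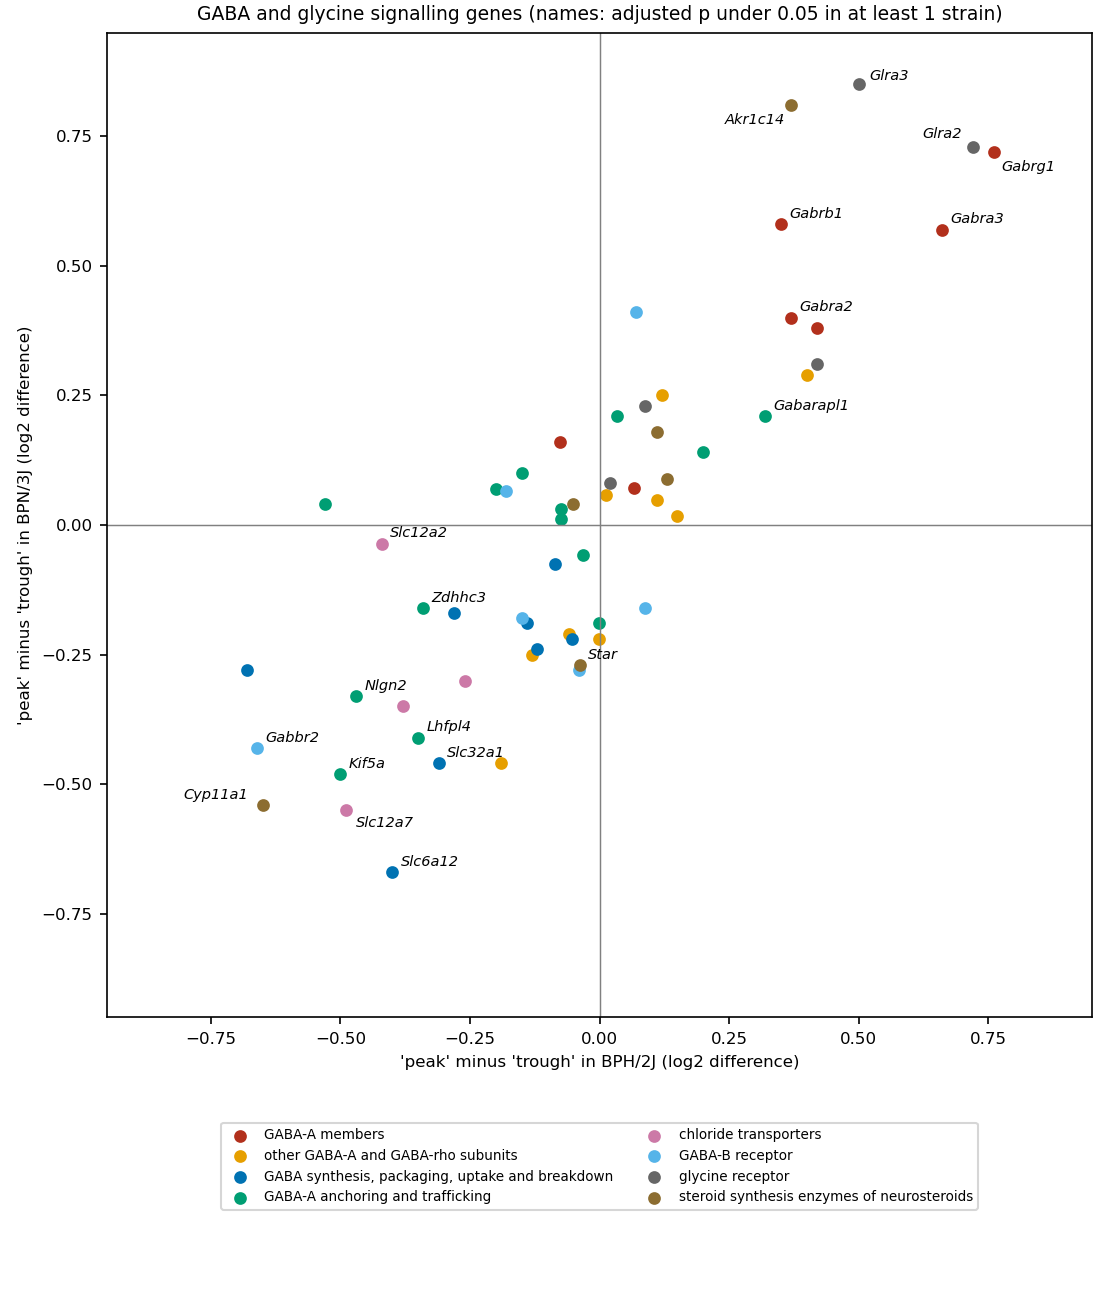
Log2 difference ‘peak’ minus ‘trough’ in BPH/2J (horizontal axis) and in BPN/3J (vertical axis), with 1 point per gene of GABA and glycine signalling, coloured by list. *Gabrg1* and *Gabra3* lie at the upper right beside *Glra2* and *Glra3*, and *Gabbr2*, *Kif5a*, *Nlgn2* and *Slc12a7* lie at the lower left.

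The markers of the hypothalamus ran from the 46.4th percentile of mean signal (*Ppp1r17*) to the 99.5th (*Pmch*). *Pmch*, the gene of melanin-concentrating hormone, ran from 11.49 to 12.83 over the 18 arrays, and *Oxt*, the gene of oxytocin, from 7.41 to 10.64. The mean of the 20 hypothalamic markers measured was 8.05 in BPH/2J ‘peak’, 7.7 in BPN/3J ‘peak’, 7.78 in BPH/2J ‘trough’ and 7.86 in BPN/3J ‘trough’ mice. Of these markers, 2 were higher at ‘peak’ BP in BPH/2J and 3 lower in BPN/3J. Of all probesets, 4.25% were called higher and 4.39% lower in BPH/2J, and 12.9% and 12.4% in BPN/3J. Thalamic markers ran from the 60th percentile of mean signal (*Zic4*) to the 98.4th (*Prkcd*), although the methods describe removal of the paraventricular and dorsomedial nuclei. The brightest, *Prkcd*, ran from 10.83 to 11.83 over the arrays. The mean of the thalamic list was 9.15 and 9.12 at ‘peak’ and ‘trough’ BP in BPH/2J and 9.14 and 9.01 in BPN/3J. Of its 11 markers, 2 and 1 were called higher at ‘peak’ BP in these strains. Markers of other regions were also bright. Those of cortex and hippocampus ran from the 30.4th percentile (*Neurod6*) to the 97.7th (*Camk2a*), and those of striatum from the 66th (*Gpr6*) to the 94.8th (*Penk*). The part of other tissue in the subunit differences was not tested.

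Neuron markers kept group means between 11.03 and 11.1. Of 11, 1 was higher at ‘peak’ BP in BPH/2J, and 1 was higher and 2 lower in BPN/3J. Beside all counts of called markers here stand the shares of all probesets, 4.25% higher and 4.39% lower in BPH/2J, and 12.9% and 12.4% in BPN/3J. Over all genes, 45.5% of the differences were positive in BPH/2J and 44.6% in BPN/3J. In some lists of other cells most markers had the same sign. Endothelial markers had a mean from 7.9 to 7.96 at ‘trough’ BP in BPH/2J, above the 7.53 to 7.77 at ‘peak’ BP, and 8 of 9 had negative differences (median -0.38), of which 3 were called lower at ‘peak’ BP in that strain, with 1 higher and 1 lower in BPN/3J. Pituitary markers ran from 5.51 to 7.51 at ‘trough’ BP in BPN/3J, with mouse 3 highest, and from 5.06 to 5.78 at ‘peak’ BP, and 7 of 7 had negative differences (median -0.58), of which 3 were called. Their defining gene *Gh*, growth hormone, had a median of 5.97 over all arrays and a maximum of 12.4, and *Prl*, prolactin, a median of 4.67 and a maximum of 8.56. Oligodendrocyte markers had negative differences in BPH/2J for 9 of 10 (median -0.2). Choroid plexus markers ran from 6.24 to 9.14 over arrays with 0 of 8 called. Markers of cortex and hippocampus averaged 8.74 in BPN/3J ‘trough’ mouse 4 and 8.55 in BPN/3J ‘peak’ mouse 8. The other mice of these groups gave 7.57 and 7.76 at ‘trough’ BP and from 7.4 to 7.67 at ‘peak’ BP. Mouse 4 and mouse 8 also gave the highest *Gabra5* of their groups, 9.43 and 9.99. Of the others in BPH/2J, 1 of 10 astrocyte markers was higher and 1 lower, 1 of 9 microglial markers was higher and 1 lower, and 0 were called of 10 for oligodendrocytes, 10 for cortex and hippocampus, 9 for striatum and 9 for ependyma and tanycytes. In BPN/3J, 1 of the astrocyte and 1 of the oligodendrocyte markers were higher, 1 microglial and 1 striatal marker were higher and 1 of each lower, 2 for cortex and hippocampus were lower and 1 for ependyma and tanycytes was lower. Their part in the subunit differences was not tested.

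**Figure D4:**
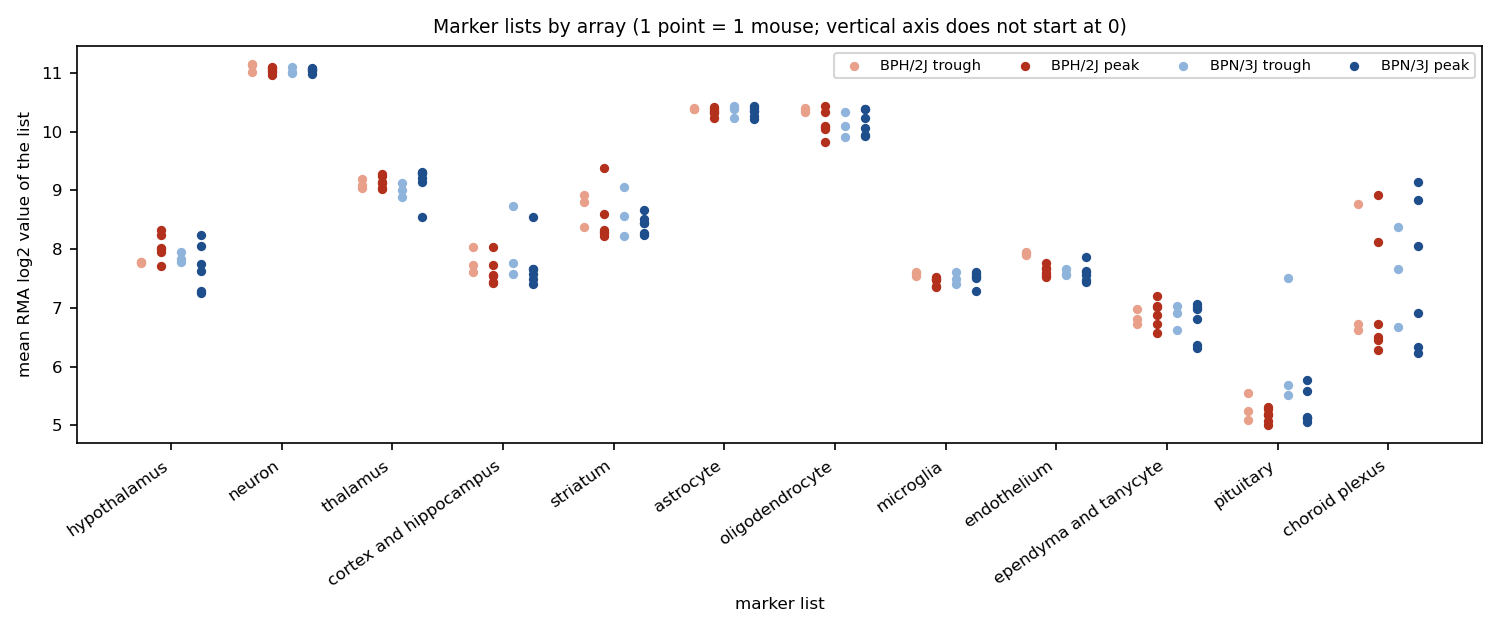
Mean RMA log2 value of each marker list (vertical axis, which does not start at 0) in each of the 18 mice, by strain and time. Neuron markers differ little between mice, while choroid plexus markers run from 6.24 to 9.14, and 1 BPN/3J ‘trough’ mouse stands at 7.51 for pituitary markers.

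The titles of the ‘trough’ mice were checked on the 20 probesets with the smallest p in limma between the strains at ‘peak’ BP. This p compares the ‘peak’ means, but its spread comes from all 18 arrays. The choice of probesets was thus not fully independent of the ‘trough’ mice. Each ‘trough’ mouse was assigned to the strain whose ‘peak’ mean it was nearer to. BPH/2J ‘trough’ mice 1, 2 and 3 lay on the BPH/2J side at all 20 probesets. Of the mice titled BPN/3J, mice 3 and 4 lay on the BPN/3J side at all 20 and mouse 1 at 19. The medians of the arrays ran from 6.17 to 6.42, and the mean correlation of an array with the others ran from 0.963 to 0.984. The lowest were BPN/3J ‘peak’ mouse 11 and BPN/3J ‘trough’ mouse 1. Without both, 2 subunits remained called in BPH/2J and 3 in BPN/3J, where *Gabra2* gave 0.26 (adjusted p = 0.218). The number of arrays limits the precision of all these values.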

How the data were processed

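Hypothalamic RNA, prepared with RNeasy kits, had been measured on 18 arrays, 1 male mouse each. The authors deposited RMA (robust multi-array average) log2 values per probeset, with the software version not given in the sources used here. These were used as deposited. They hold no counts, and the number of arrays sets the precision. Groups follow the sample titles. Probesets were named by the platform annotation, with RefSeq gene IDs matched for all 7 members. The brightest probeset stood for a gene with several. Differences were fitted with limma 3.58.1 in R 4.3.3 as 1 model of the 4 groups, with p-values adjusted over 34760 probesets. A gene is called at an adjusted p under 0.05, and *aFD* was read at 1.5 with no test.

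The text names every member, every gene of the 7 other pathway lists called in any comparison or among the 2 of its list with the smallest p, and the 2 genes most like each member. Marker lists for 12 regions or cell types were counted. The members and lists were chosen with earlier results of these data known. The fit was tested on simulated data. Promoter windows came from RefSeq. Alternatives were 2 scalings, a filter on dim probesets, array weights, another prior, other sets of arrays, a replicate block and the mean of a gene's probesets. Figures were drawn with matplotlib 3.10.9 in Python 3.11.15.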

Additional observations from a re-analysis of the deposited data

Results flagged for a closer look

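*Gabra5* gave 9.09 in BPH/2J ‘peak’ mouse 9, the lowest of its group and far from the next of the other 5 mice, which gave from 9.6 to 9.76. It was the 1 such value among the 18 sets of 6 ‘peak’ mice examined (9 probesets in each strain), and chance gives about 1 in 20. Without this mouse *Gabra5* was 0.52 higher in the BPH/2J ‘peak’ mice than in the ‘trough’ mice (adjusted p = 0.0672 in limma).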

How the results depend on the processing

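Limits first: there were 3 ‘trough’ mice per strain, time is joined with age, signals lie on the RMA scale, and the strain of the BPN/3J ‘trough’ mice rests on their titles. No subunit was called between the strains at ‘peak’ BP or in *d*, or reached an *aFD* of 1.5, under any alternative that gave these values (the fit of only the groups compared gives no *d* or *aFD*). *Gabra3* in BPH/2J and *Gabrb1* and *Gabrg1* in BPN/3J remained called without each array in turn (adjusted p of at most 0.0497, 0.0404 and 0.0311). The count in BPH/2J ran from 1 to 3 and that in BPN/3J from 2 to 4 in these fits, and *Gabrb1* was called in BPH/2J without BPN/3J ‘peak’ mouse 10 (0.35, adjusted p = 0.0401). Array weights gave 1 subunit between the strains at ‘trough’ BP (*Gabrb2*, 0.19, adjusted p = 0.0129) and 5 in BPH/2J. In BPN/3J they gave 5, with *Gabra5* at 0.75 (adjusted p = 0.000111), and the weight of ‘trough’ mouse 3 there was 9.44. A fit of only the groups compared gave 4 in BPH/2J, a term that set the higher-numbered ‘peak’ mice apart gave 5 in BPH/2J and 5 in BPN/3J (*Gabra5* 0.54 and 0.5, adjusted p = 0.0302 and 0.0237), and the lower-numbered ‘peak’ mice alone 5 in each strain. The higher-numbered alone gave 1 in BPH/2J and 1 in BPN/3J. The last 2 settings were chosen after seeing the data. The term uses the same split of the ‘peak’ mice, so its calls also follow from that split. Median centring added *Gabrb2* in BPN/3J (0.25, adjusted p = 0.0287). *Gabra2* in BPN/3J was not called after quantile normalization (0.28, adjusted p = 0.104) or in the fit of only 2 groups (0.4, adjusted p = 0.139). The causes were not tested.

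The mouse numbers in the titles did not pair the samples, with residual correlations from -0.3 to 0.19 over 6 pairs. With the number as a replicate block, 1 subunit was called in BPH/2J, where *Gabrg1* gave 0.77 (adjusted p = 0.054), and 5 in BPN/3J, where *Gabra5* gave 0.7 (adjusted p = 0.0114). The block turned *Gabrd* in BPH/2J to -0.0022 and *d* of *Gabra3*, *Gabra5* and *Gabrg1* to -0.11, -0.17 and -0.12.

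The other signs that turned were all of differences that were not called. Quantile normalization gave -0.017 for *Gabra3* between the strains at ‘trough’ BP, -0.035 for *Gabrd* in BPN/3J, and *d* of 0.048 and 0.089 for *Gabra2* and *Gabrd*. Median centring gave 0.034 for *Gabrb2* between the strains at ‘peak’ BP, and *d* of -0.0021 and -0.0028 for *Gabra5* and *Gabrg1*. Array weights gave -0.0056 and -0.21 for *Gabrd* in BPH/2J and BPN/3J, and *d* of 0.2, 0.0053, -0.28 and -0.022 for *Gabrd*, *Gabra2*, *Gabra5* and *Gabrg1*. The mean of its probesets gave 0.0039 between the strains at ‘peak’ BP and 0.0057 in BPH/2J for *Gabrb2*. Without the 2 least correlated arrays the values were 0.032 for *Gabrb2* at ‘peak’ and -0.027 for *Gabra2* at ‘trough’ BP between the strains, -0.18 for *Gabrd* in BPN/3J, and *d* of 0.24, 0.1 and -0.0086 for *Gabrd*, *Gabra2* and *Gabra5*. The term for the higher-numbered mice gave -0.036 and -0.032 for *Gabrd* in the strains, the lower-numbered mice alone -0.087 for *Gabrd* in BPH/2J and a *d* of -0.013 for *Gabra5*, and the higher-numbered alone 0.064 and 0.016 for *Gabrb2* between the strains at ‘peak’ BP and in BPH/2J, with *d* of 0.016 and 0.2 for *Gabra2* and *Gabrd*.

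Without each array in turn, the strain difference at ‘peak’ BP ran from -0.0045 to 0.11 for *Gabrb1* and from -0.024 to 0.032 for *Gabrb2*, and that at ‘trough’ BP from -0.027 to 0.29 for *Gabra2* and from -0.057 to 0.26 for *Gabra5*. *Gabrd* ran from -0.035 to 0.19 in BPH/2J and from -0.081 to 0.2 in BPN/3J. For *d* the ranges were -0.17 to 0.15 for *Gabra2*, -0.14 to 0.18 for *Gabra5*, -0.045 to 0.12 for *Gabrg1* and -0.14 to 0.15 for *Gabrd*. Outside these fits, 355 values for single subunits kept sign and call, 17 gained a call, 8 lost it and 33 turned sign.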
